A study of Mus musculus with 8 samples.

Results

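The genes described here are the mouse chemokines and chemokine receptors, taken as every row of the deposited count table whose symbol is a family name (Ccl, Cxcl, Cx3cl, Xcl, Ccr, Cxcr, Cx3cr, Xcr or Ackr) followed by its number and at most 1 letter. The rule found 61 of the 24982 genes in the table. Of these, 38 had at least 20 counts over the 8 libraries and are reported: 21 ligands, 13 signalling receptors and 4 atypical receptors. The other 23 had fewer counts, 9 of them none. A filter on low counts kept 28 of the 38 for testing.

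Chemokines are small secreted proteins that bind receptors coupled to inhibitory G proteins on leukocytes and direct their migration along a gradient. Atypical receptors bind the same ligands without this signal and clear or transport them. In liver, resident macrophages, endothelium, stellate cells, bile duct cells and hepatocytes all produce chemokines, and recruitment through CCR2 and CX3CR1 (monocytes) or CXCR2 (neutrophils) is known from cholestatic injury and fibrosis.

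Ribosome-associated RNA was pulled down from mouse liver in 4 groups of 2 libraries. All mice carried LysM-Cre, which expresses Cre from the Lyz2 locus of macrophages, monocytes and neutrophils, and RiboTag, an allele of a ribosomal protein gene that gains an epitope tag wherever Cre is active. Wild type is used below for LysM-Cre:Ribotag. These mice gave a control group and a group taken at 17 days of bile duct ligation (BDL), in which the common bile duct is tied off and bile backs up into the liver. LysM-Cre:Hmoxflfl:Ribotag mice, which also carried floxed alleles of Hmox1 (heme oxygenase-1, HO-1), gave the same pair of groups. The labels do not state age, sex, a sham operation or whether libraries came from separate animals. The p-values then cover the spread among libraries alone. Outside the wild-type BDL group, whose 2 libraries differ in sex by the genes given below, that spread may be technical.

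Hmox1 went against the genotype labels. Its level in CPM (counts per M of a library size scaled by trimmed means) was 6.22 and 7.46 in wild-type controls, 26.0 and 24.0 in wild type after BDL, 22.5 and 29.9 in controls labelled deleted, and 72.3 and 95.5 in BDL labelled deleted. Since the level was higher and not lower, that genotype is written as labelled HO-1 deleted, or labelled deleted, throughout. Lyz2, the locus that carries Cre, was at 8.04 to 27.3 CPM in the wild-type libraries and at 0.128 to 0.665 CPM in those labelled deleted. Xist, a transcript of female cells, was at 667 CPM in wild-type BDL replicate 1 and at no more than 0.382 CPM elsewhere. The Y-linked gene Ddx3y had 0 counts in that library and was at 43.6 to 97.8 CPM elsewhere. By these genes the wild-type BDL libraries came from a female (replicate 1) and a male (replicate 2), so from separate animals. Sex is thus mixed within that group. Total counts ran from 9.81 to 40.9 M, of which the ribosomal RNA precursor RN45S took 10.3% to 66.8%. BDL labelled deleted replicate 2 was the shallowest library, where a single count equals 0.222 CPM against 0.0212 to 0.0546 CPM in the others. The cell type is given as myeloid, yet 10 hepatocyte markers summed to 21456 to 42280 CPM over the libraries, against 84.9 to 459 CPM for 12 monocyte and macrophage markers and 6.28 to 40.9 CPM for 12 neutrophil markers. Input RNA was not analysed here, so a member's source in tagged or untagged cells was not tested. In bulk RNA, fewer cells of a type and less RNA per cell cannot be told apart.

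Promoter stretches are shown for 4 ligands, which rose in wild type after BDL and hold matches to binding motifs of inflammatory transcription factors. Of the 38 genes, 28 had an entry in the promoter table, which holds 300 bases per start site (250 before it and 50 after) from RefSeq on build GRCm38.p6. The motifs searched on both strands were GGG, any 2 bases and TTTCC, a form of the NF-kB site, and GAAA, any 2 bases and GAAA, the core of the interferon-stimulated response element. The matches shown share no letters. Each stretch is written 5′ to 3′ on the strand of the gene, with matches in capitals. The stretches of Cxcl1 (chr5:90891095-90891244, plus strand) and Cxcl2 (chr5:90903749-90903898, plus strand) end at the base before the start site. Those of Cxcl10 (chr5:92348990-92349139, minus strand) and Cxcl14 (chr13:56296652-56296801, minus strand) run from base -250 to base -101.
Cxcl1: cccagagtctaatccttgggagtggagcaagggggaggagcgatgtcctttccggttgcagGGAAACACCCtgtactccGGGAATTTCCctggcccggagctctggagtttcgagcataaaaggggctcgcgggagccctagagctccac
Cxcl2: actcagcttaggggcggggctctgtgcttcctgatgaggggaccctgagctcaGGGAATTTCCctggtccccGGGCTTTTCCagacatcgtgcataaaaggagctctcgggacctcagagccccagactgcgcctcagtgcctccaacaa
Cxcl10: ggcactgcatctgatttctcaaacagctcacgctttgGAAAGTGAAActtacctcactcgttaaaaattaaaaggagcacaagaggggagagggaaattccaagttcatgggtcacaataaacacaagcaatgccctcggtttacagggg
Cxcl14: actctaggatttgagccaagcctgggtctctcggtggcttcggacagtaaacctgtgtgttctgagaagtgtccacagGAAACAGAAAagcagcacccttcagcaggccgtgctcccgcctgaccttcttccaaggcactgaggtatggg

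Cxcl1 and Cxcl2 each held 2 matches to the NF-kB letters, with GGGAATTTCC in both. Matches were also found in Ccl9 and Ccr3, so 4 of the 28 reported genes held them. Of all 32851 windows in the table, where a gene can have several, 1.63% held the NF-kB letters. They were found in 2 of 11 genes called higher in wild type after BDL and equally in 2 of 11 tested genes not called higher. The interferon letters were found in Cxcl10 and Cxcl14, 2 of 28 genes, and in 3.44% of all windows. These matches are descriptions of the letters and do not show binding.

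Cxcl12, which retains CXCR4-bearing cells in tissue, stood far above every other member in all 8 libraries. Per length, on the FPKM scale of the authors (fragments scaled to gene length and depth), its level was 22.5 ± 7.25 (mean ± SD over 8 libraries), and the next levels were those of Cxcl1 (3.47), Ccl9 (2.50), Cxcl16 (2.47), Cxcl14 (2.22) and Ccl6 (2.18). The ranges of these 5 over the libraries overlapped each other. Among the receptors, Cxcr4 was at 0.664 FPKM, Cx3cr1 at 0.579 and Ccr2 at 0.482, again with overlapping ranges. Cxcl12 held 68.6% to 80.0% of all counts of the reported members in the 4 control libraries and 39.9% to 47.1% in the 4 BDL libraries. Its own level was 113 and 142 CPM in wild-type controls, 102 and 98.2 CPM in wild type after BDL, 204 and 138 CPM in controls labelled deleted, and 87.9 and 117 CPM in BDL labelled deleted. Both BDL libraries lay below both controls in each genotype, and neither difference passed the test (log2 fold change -0.35 ± 0.27, adjusted p = 0.406, and -0.75 ± 0.27, adjusted p = 0.0595). The second was called lower by DESeq2 (adjusted p = 0.0328), and by edgeR without the filter on low counts, with the RN45S share as a term, without control labelled deleted replicate 2 and without BDL labelled deleted replicate 2 (adjusted p = 0.0395, 0.0198, 0.0468 and 0.04998). The other ligands together summed to 32.7 to 50.7 CPM in the 4 controls and 78.1 to 126 CPM in the 4 BDL libraries, and the 13 receptors to 5.87 to 9.84 and 19.5 to 39.4 CPM. The 4 atypical receptors stayed between 2.57 and 3.99 CPM throughout.

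**Figure D1:**
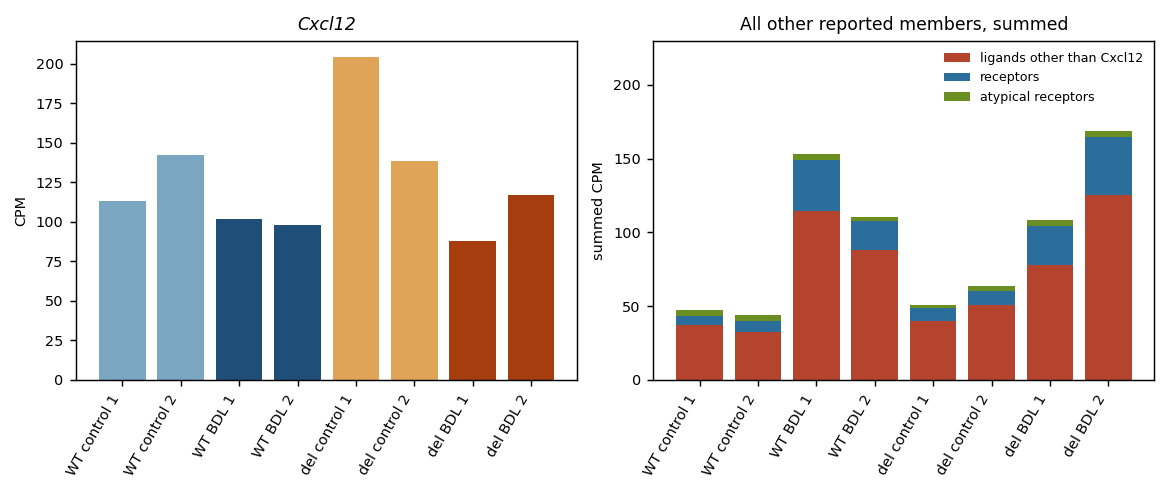
Level of Cxcl12 (left, CPM) and the summed CPM of all other reported members (right) in each of the 8 libraries, as bars from 0, with WT for wild type and del for labelled HO-1 deleted. The bars on the right lie higher in the 4 BDL libraries, where ligands other than Cxcl12 sum to at least 78.1 CPM, than in the 4 controls, where they sum to at most 50.7 CPM.

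In wild type, BDL raised 15 of the 28 tested members and lowered 0. The share called higher among all 14147 tested genes was 11.8%, and 6.59% were called lower. Calls are an adjusted p under 0.05 by edgeR's quasi-likelihood F test with Benjamini-Hochberg adjustment over all tested genes, log2 fold changes are given ± SE, and adjusted p values below are from this test. The 28 had a median log2 fold change of 1.73 (also with Cxcl5 at its bound, given below), against 0.02 for all tested genes. Since a gene can pass the filter only through the group where it is high, these counts describe the tested members and not all 38. Both BDL libraries lay above both controls for 19 of the 28 and below them for 3, against 31.5% and 29.8% of all tested genes. By kind, 10 of 17 ligands, 5 of 8 receptors and 0 of 3 atypical receptors were called higher. In the libraries labelled HO-1 deleted, BDL raised 11 of the 28 and lowered 3, with 15.1% of all tested genes called higher and 12.4% lower there. The median was 1.11, against -0.03 for all tested genes. Groups did not overlap for 17 members that lay higher after BDL and 4 that lay lower, against 31.9% and 34.3% of all tested genes. The 11 that rose were all among the 15 of the wild type (73.3% of that list and 100% of this one). This overlap was not counted over all tested genes, so it is not shown to be particular to these members. Counts of marker genes called below are to be read against the shares of all tested genes given here.

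**Figure D2:**
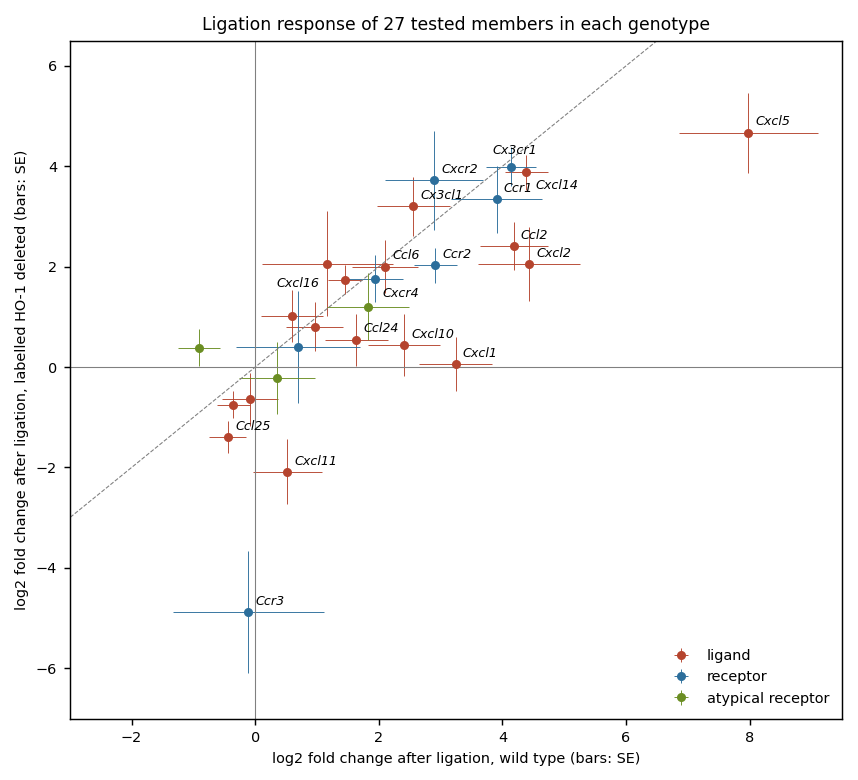
Log2 fold change after BDL of 27 tested members in wild type (horizontal) and in the libraries labelled HO-1 deleted (vertical), with SE bars and a dashed line of equal change; names mark the 18 genes called in either comparison, and the horizontal value of Cxcl5 is fitted against 0 counts and is no estimate of size. The genes called higher in both lie at the upper right, while Cxcl1, Cxcl10 and Ccl24 lie near 0 on the vertical axis. Ccr3 lies at -4.88 there, fitted against 1 count in BDL labelled deleted.

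The neutrophil-attracting CXC ligands, which signal through CXCR2, rose together in wild type. Cxcl1 was at 0.785 and 1.54 CPM in wild-type controls and at 9.15 and 13.05 CPM after BDL. The levels were 3.63 and 13.3 CPM in controls labelled deleted and 7.81 and 10.4 CPM in BDL labelled deleted. The wild-type groups did not overlap (3.24 ± 0.59, adjusted p = 0.00492), whereas both BDL values of the other genotype fell between its 2 controls (0.06 ± 0.54, adjusted p = 0.951).

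Cxcl2 was at 0.188 and 0 CPM in wild-type controls and at 1.32 and 3.06 CPM after BDL. In the libraries labelled deleted it was at 0.427 and 0.360 CPM and, after BDL, at 1.32 and 2.22 CPM. BDL libraries were above controls in both genotypes, and the difference was called in wild type (4.43 ± 0.82, adjusted p = 0.00383) but not in the other (2.05 ± 0.74, adjusted p = 0.0573). That second difference lay at the threshold: DESeq2 called it (adjusted p = 0.028), and edgeR did without any single wild-type library (adjusted p = 0.0312 to 0.0457).

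Cxcl5, also an epithelial product, had 0 counts in both wild-type controls and was at 1.55 and 0.710 CPM after BDL. With the controls set to 3 counts in all, the floor used for a count of 0, it was at least 26.4-fold higher (adjusted p = 0.00113). Floors and counting intervals cover counting error only. In the libraries labelled deleted it was at 0.0427 and 0.0423 CPM (3 counts in all) in controls and at 1.24 and 1.11 CPM after BDL, a ratio of 28.7 with a 95% counting interval of 9.09 to 145 (adjusted p = 0.00225). In both genotypes the gene was at or near 0 before BDL and detected in each library after it.

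Their receptor gene Cxcr2 was at 0.0314 and 0.289 CPM in wild-type controls and at 1.46 and 0.928 CPM after BDL (2.89 ± 0.79, adjusted p = 0.0251). Under the deleted label, controls were at 0 and 0.0847 CPM and BDL libraries at 0.812 and 0.665 CPM (3.72 ± 0.99, adjusted p = 0.017). The receptor thus lay higher after BDL in every library of either genotype, though BDL labelled deleted replicate 2 held only 3 counts. The wild-type call ended in 6 of the 17 alternatives that gave the gene an adjusted p, and the other call in 3 of 16. Of the 12 neutrophil markers, 7 were tested and 4 rose in each genotype, among them Csf3r, the granulocyte growth factor receptor (1.79 in wild type and 2.06 in the other), Mmp9 (2.71 and 2.28) and S100a9 (2.78 and 1.96). Ly6g, the surface marker that defines mouse neutrophils, went the other way under the deleted label, from 0.598 and 0.127 CPM to 0.0387 and 0 CPM, without a call (adjusted p = 0.111). The list summed to 6.28 to 7.27 CPM in wild-type controls and 21.5 to 33.1 after BDL, and to 8.62 to 9.36 and 34.6 to 40.9 CPM in the libraries labelled deleted, where Camp was at 0 in controls. Its part in the change of Cxcr2 was not tested.

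The Cxcl5, Cxcl1 and Cxcl2 genes lie with Cxcl3 and Cxcl15 in 147 kb of chromosome 5 (90759360 to 90905938, build mm10), and all 3 reported genes of this cluster were called higher in wild type. The neighbouring 44.1 kb cluster of Cxcl9, Cxcl10 and Cxcl11 (92321347 to 92365485), ligands of CXCR3 that are induced by interferons, was mixed.

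Cxcl10 was at 1.88 and 1.03 CPM in wild-type controls and at 3.54 and 12.2 CPM after BDL (2.41 ± 0.58, adjusted p = 0.0168). The other genotype had 1.37 and 2.50 CPM in controls and 2.21 and 3.54 CPM after BDL, where the groups overlapped (0.44 ± 0.62, adjusted p = 0.624). The wild-type call ended without BDL replicate 2 and without either control. Cxcl11 was at 1.005 and 0.547 CPM in wild-type controls and at 0.994 and 1.26 CPM after BDL (0.52 ± 0.56, adjusted p = 0.57). Under the deleted label it fell from 2.31 and 1.55 CPM to 0.580 and 0 CPM (-2.09 ± 0.65, adjusted p = 0.0328), the 0 standing in the shallowest library, and the call ended without that library or either control. Cxcl9 ran from 3.50 to 12.6 CPM over the 8 libraries and was called in neither genotype, except that without BDL labelled deleted replicate 1 it was higher after BDL there (1.56, adjusted p = 0.0327). Their receptor gene Cxcr3, of activated T and NK cells, had at most 20 counts in a library and was called in neither. T and NK cell markers summed to 2.07 to 7.31 CPM over all libraries, with 0 of 3 tested genes called in either genotype.

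The ligand and receptor genes of monocyte recruitment rose in both genotypes. Ccl2, which draws CCR2-bearing monocytes from blood, was at 0.188 and 0.129 CPM in wild-type controls and at 2.43 and 3.55 CPM after BDL (4.18 ± 0.55, adjusted p = 0.000633). Controls labelled deleted were at 0.342 and 0.847 CPM, and BDL labelled deleted at 3.48 and 3.10 CPM (2.40 ± 0.48, adjusted p = 0.0041). After BDL the levels of the genotypes overlapped, while the controls labelled deleted started above those of the wild type.

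Ccr2, its receptor, was at 1.005 and 0.997 CPM in wild-type controls and at 8.89 and 6.22 CPM after BDL (2.92 ± 0.34, adjusted p = 0.000389). The levels were 1.28 and 1.48 CPM in controls labelled deleted and 4.87 and 6.87 CPM in BDL labelled deleted (2.03 ± 0.35, adjusted p = 0.00181). No BDL library of either genotype reached down to a control. With total-count scaling the calls under the deleted label ended for both genes (adjusted p = 0.0783 for Ccl2 and 0.135 for Ccr2).

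Cx3cl1, a membrane-bound ligand of endothelium and epithelium that is shed by ADAM proteases, was at 0.408 and 0.289 CPM in wild-type controls and at 2.81 and 1.26 CPM after BDL (2.56 ± 0.59, adjusted p = 0.0115). Under the deleted label, controls were at 0.214 and 0.677 CPM and BDL libraries at 3.56 and 5.76 CPM (3.20 ± 0.58, adjusted p = 0.00258). Its receptor gene Cx3cr1, found on monocytes and on macrophages derived from them, was at 0.283 and 0.450 CPM in wild-type controls and at 8.13 and 4.75 CPM after BDL (4.13 ± 0.40, adjusted p = 0.000138), a 17.5-fold rise. The other genotype had 0.727 and 0.677 CPM in controls and 10.7 and 11.7 CPM after BDL (3.99 ± 0.39, adjusted p = 9.26e-05), a 15.9-fold rise. The ligand and its receptor moved in the same direction in both genotypes, and for both genes the BDL libraries labelled deleted lay above those of the wild type. That genotype difference did not pass the test (adjusted p = 0.442 and 0.391).

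Ccl7, a further CCR2 ligand next to Ccl2 on chromosome 11, had 53 counts in all and was not tested, with 0.0628 and 0.0643 CPM in wild-type controls and 0.643 and 0.273 CPM after BDL. The same cluster holds Ccl11, Ccl12, Ccl8 and Ccl1, which had 0 to 13 counts in all and are not reported. Of the 12 monocyte and macrophage markers, 11 were tested, and 8 rose in wild type and 10 in the libraries labelled deleted. Their sum went from 98.0 to 98.3 CPM in wild-type controls to 174 to 280 CPM after BDL, and from 84.9 to 109 to 282 to 459 CPM in the other genotype, with none at 0 in any group. Their part in the rise of Ccr2 and Cx3cr1 was not tested.

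Ccr1, a receptor of inflammatory CC ligands on myeloid cells, was at 0.0628 and 0.161 CPM in wild-type controls and at 2.54 and 0.819 CPM after BDL (3.91 ± 0.73, adjusted p = 0.00394), and at 0.385 and 0.233 CPM and then 2.28 and 4.21 CPM in the libraries labelled deleted (3.34 ± 0.67, adjusted p = 0.00417). Ccl6, a CC ligand of myeloid cells that acts on CCR1, was at 2.10 and 1.90 CPM in wild-type controls and at 13.3 and 3.60 CPM after BDL (2.10 ± 0.53, adjusted p = 0.0224). Controls labelled deleted were at 3.21 and 3.81 CPM, and BDL labelled deleted at 10.4 and 18.6 CPM (1.9999 ± 0.53, adjusted p = 0.0203). The 2 libraries of each BDL group differed widely in this gene. Its neighbour Ccl9 was at 7.28 to 16.5 CPM over the controls and 11.5 to 26.9 CPM over the BDL libraries, with no call. Ccl3 had 37 counts in all and was not called (1.17 ± 1.06 and 2.06 ± 1.05), and Ccl5, with 41, was not tested.

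The receptor genes Ccr1, Ccr3 and Ccr2 are neighbours on chromosome 9. Ccr1 and Ccr2 were higher after BDL in both genotypes, whereas Ccr3 was lower in 1 genotype, so these neighbours did not share a direction.

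Ccr3, the eotaxin receptor of eosinophils, was at 0.0628 and 0.0965 CPM in wild-type controls and at 0.117 and 0 CPM after BDL (-0.11 ± 1.22, adjusted p = 0.96). The levels were 0.983 and 1.35 CPM in controls labelled deleted and 0 and 0.222 CPM in BDL labelled deleted, the latter being a single count. The ratio of controls to BDL was 37.4, with a 95% counting interval of 6.54 to 1494 (adjusted p = 0.0123), and only the 2 controls labelled deleted had more than 4 counts. The call ended without controls labelled deleted replicate 2 or BDL labelled deleted replicate 1. Epx, an eosinophil granule gene, and Mcpt4, a mast cell protease, were at 0 in all 4 groups, and Prg2 had group means of at most 0.390 CPM. Siglecf, an eosinophil surface marker, was higher in BDL labelled deleted, opposite to Ccr3, with 0 and 0.0423 CPM in controls and 1.04 and 0.443 CPM after BDL (adjusted p = 0.0107). The 0.443 CPM stood in the shallowest library, where a single count equals 0.222 CPM, and Siglecf was not followed through the alternatives. The list of 6 summed to 6.77 to 13.7 CPM over the libraries, most of it Kit, and its part in the values of Ccr3 was not tested. Ccl24, a CCR3 ligand made by macrophages, was at 0.408 and 0.547 CPM in wild-type controls and at 1.61 and 1.37 CPM after BDL (1.64 ± 0.51, adjusted p = 0.0426). Under the deleted label, controls were at 0.684 and 1.29 CPM and BDL libraries at 1.12 and 2.22 CPM (0.55 ± 0.52, adjusted p = 0.456). The wild-type call of Ccl24 ended in 13 of 19 alternatives, among them DESeq2 and leaving out any wild-type library.

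Among ligands that are also made without inflammation, Cxcl14 had the smallest p of all members in either genotype. This epithelial and stromal chemokine was at 0.722 and 0.900 CPM in wild-type controls and at 20.7 and 13.3 CPM after BDL (4.39 ± 0.35, adjusted p = 3.41e-05), a 20.9-fold rise. The other genotype had 1.28 and 0.847 CPM in controls and 14.5 and 16.2 CPM after BDL (3.88 ± 0.34, adjusted p = 5.51e-05), a 14.7-fold rise. On the FPKM scale, Cxcl14 averaged 0.301 in wild-type controls and 5.003 after BDL, where Cxcl1 (5.70) and Cxcl12 (19.9) were the only members above it. Bile duct cell and stellate cell markers moved alongside. So did, by their sums, the neutrophil, monocyte and macrophage, Kupffer cell and dendritic cell lists. Of 10 bile duct markers 8 were tested and 7 rose in each genotype, with sums of 45.6 to 54.3 CPM over the controls and 234 to 1186 CPM over the BDL libraries, and 11 stellate and fibroblast markers summed to 238 to 375 and 1258 to 3224 CPM. No bile duct, stellate or fibroblast marker was at 0 in any group. The part of any of these lists in the rise of Cxcl14 was not tested.

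Cxcl16, a membrane-bound ligand of macrophages and endothelium, was at 3.89 and 4.15 CPM in wild-type controls and at 12.3 and 9.77 CPM after BDL (1.46 ± 0.27, adjusted p = 0.00407). Controls labelled deleted were at 3.29 and 4.81 CPM, and BDL labelled deleted at 12.8 and 14.8 CPM (1.74 ± 0.28, adjusted p = 0.00133). Cxcr6, its receptor on T and NK cells, had 25 counts in all and was not tested. Cxcr4, the CXCL12 receptor of leukocytes, was at 0.628 and 1.13 CPM in wild-type controls and at 4.36 and 2.29 CPM after BDL (1.94 ± 0.46, adjusted p = 0.0127). The levels were 1.15 and 1.16 CPM in controls labelled deleted and 3.06 and 5.32 CPM in BDL labelled deleted (1.76 ± 0.47, adjusted p = 0.017). In each genotype Cxcl12 was not called, with both BDL libraries below both controls, while Cxcr4 was called higher. The difference between these genes was not tested.

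Ccl25, the CCR9 ligand of gut and thymus epithelium, was at 3.11 and 3.22 CPM in wild-type controls and at 2.31 and 2.35 CPM after BDL (-0.44 ± 0.30, adjusted p = 0.344). It fell under the deleted label from 6.20 and 5.69 CPM to 2.05 and 2.66 CPM (-1.40 ± 0.32, adjusted p = 0.00883). After BDL the genotypes overlapped, and the controls labelled deleted stood apart from the other 6 libraries. Ccl27a, a skin-type ligand, ran from 0.735 to 1.99 CPM and was called in neither genotype. The lymphoid genes Cxcl13, Cxcr5, Ccr7, Ccr9, Xcr1 and Ccl28 had 36 to 47 counts each and were not tested, and no untested member exceeded 1.11 CPM in any library.

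Of the atypical receptors, Ackr3, which scavenges CXCL12, had positive values (1.83 ± 0.67, adjusted p = 0.0813, and 1.20 ± 0.67, adjusted p = 0.197). It was at 0.126 and 0.289 CPM in wild-type controls and at 0.731 and 0.764 CPM after BDL. Ackr2, which degrades inflammatory CC ligands, was at 3.30 and 2.96 CPM in wild-type controls and at 1.87 and 1.42 CPM after BDL (-0.91 ± 0.34, adjusted p = 0.0887), while in the libraries labelled deleted it was at 1.71 and 1.57 CPM in controls and at 2.32 and 1.77 CPM after BDL (0.38 ± 0.37, adjusted p = 0.46). The groups did not overlap in either genotype and the directions were opposite, but neither change passed the test. Ackr4, a scavenger of lymphoid ligands, was not called, and Ackr1, a ligand transporter of venous endothelium, was not tested.

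**Figure D3:**
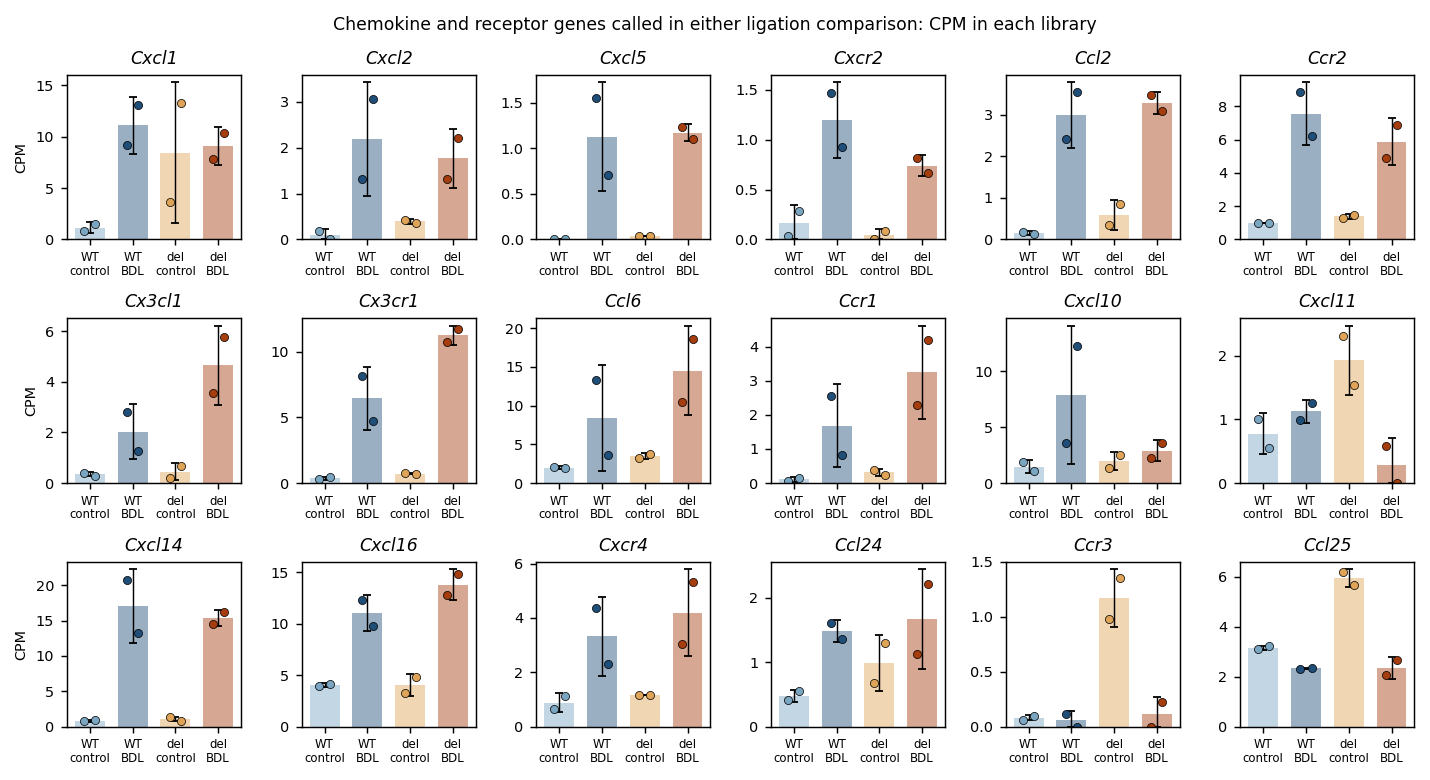
CPM of the 18 members called after BDL in either genotype, 1 panel a gene, with a point for each library, a bar for the group mean and an error bar of 1 SD (n = 2, cut at 0), for wild type (WT) and libraries labelled HO-1 deleted (del). Cx3cr1, Cxcl14 and Ccr2 separate BDL from control in both genotypes, Ccr3 and Ccl25 are high in the del controls, and Cxcl1 is at 13.3 CPM in 1 of the 2 del controls.

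The calls differed in how far they rested on single libraries. In wild type, Ccl2, Ccr2, Cx3cr1, Cxcl2, Cxcl5 and Cxcl14 were called whichever library was left out. Among the libraries labelled deleted, Ccl2, Ccr2, Ccr1, Cx3cl1, Cx3cr1, Cxcl5, Cxcl14 and Cxcl16 were called whichever library was left out. Where a library is left out, its group has a single library, which is assumed to vary like the other groups. Calls over all genes in these fits are not given here, so a lost call cannot be told from a general loss of calls. Over all 19 alternatives, the call of Ccl6 ended in 10 in wild type and 8 under the deleted label, among them the RN45S term and either control left out. That of Cx3cl1 ended in 8 in wild type, and that of Cxcr4 in 7 in each genotype.

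Genes that act with chemokine receptors changed as well. Of all tested genes, 11.8% rose and 6.59% fell in wild type, and 15.1% rose and 12.4% fell under the deleted label. Of 23 tested genes of receptor signalling, 12 rose and 0 fell in wild type, with a median of 1.01. In the libraries labelled deleted 15 rose and 0 fell, with a median of 1.003. The members with the smallest p in wild type were Vav1, a Rac activator (1.54, adjusted p = 0.00102), Elmo1 (1.87, adjusted p = 0.00148), Gnai2, the inhibitory G protein subunit of leukocytes (1.37, adjusted p = 0.00203) and Plcb2 (1.37, adjusted p = 0.00229). Under the deleted label they were Pik3r5, a subunit of the PI3-kinase that G proteins activate (2.47, adjusted p = 0.000252), Vav1 (1.64, adjusted p = 0.000549), Dock2 (1.93, adjusted p = 0.00056) and Gnai2 (1.503, adjusted p = 0.000954). Beside them, monocyte and macrophage markers rose as given above, while 0 of 5 tested B and plasma cell markers were called in either genotype (medians -0.76 and -1.94).

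Among all tested genes, 11.8% rose in wild type and 15.1% under the deleted label, and 6.59% and 12.4% fell. Of 13 tested inducers of chemokine genes and NF-kB factors, 7 rose in wild type and 4 in the libraries labelled deleted. In either genotype 0 fell (medians 1.34 and 0.53). In wild type the smallest p belonged to Tnfaip3, a brake on NF-kB (2.97, adjusted p = 0.00219), Irf1 (1.34, adjusted p = 0.00294), Nfkb2 (1.63, adjusted p = 0.0045) and the cytokine gene Tnf (3.14, adjusted p = 0.00672). Those that rose under the deleted label were Tnf (2.97, adjusted p = 0.00574), Relb (1.83, adjusted p = 0.0106), Nfkb2 (1.11, adjusted p = 0.0213) and Irf1 (0.79, adjusted p = 0.0278), and Tnfaip3 was at 0.96 (adjusted p = 0.127). Il17a was at 0 in every library. Of 7 tested relatives outside the symbol rule, Cmklr1, the chemerin receptor, rose in both genotypes (1.54, adjusted p = 0.000916, and 1.26, adjusted p = 0.00202). Under the deleted label Pf4, a platelet CXC chemokine, rose (1.996, adjusted p = 0.0373) and Dpp4, a protease that trims chemokines, fell by 0.77 (adjusted p = 0.0337), while in wild type they were at 1.16 (adjusted p = 0.236) and -0.03 (adjusted p = 0.948).

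Between genotypes, 0 members were called by edgeR in controls and 0 after BDL, where 0.191% (0.0778% higher, 0.113% lower) and 0.0636% (0.0141% higher, 0.0495% lower) of all tested genes were called. Of all 14147 tested genes, 968 in controls and 1670 after BDL had an unadjusted p under 0.05. So did 6 of the 28 members in controls and 2 after BDL. In controls the smallest p belonged to Cxcl1 (2.88 ± 0.58, adjusted p = 0.143), Ccr3 (3.82 ± 0.84, adjusted p = 0.159) and Ccl2 (1.95 ± 0.58, adjusted p = 0.438), each higher in both controls labelled deleted than in both wild-type controls. DESeq2 called Cxcl1 there (adjusted p = 1.44e-05), and edgeR called it without control labelled deleted replicate 1 (adjusted p = 0.0181), which leaves the library at 13.3 CPM alone in its group, with the spread taken from the other groups. Ccr3 was called without the filter on low counts (adjusted p = 0.00246) and with the 2 control groups fitted alone (adjusted p = 0.0286), but not by DESeq2 (adjusted p = 0.205). The controls labelled deleted lay above the wild-type controls without overlap for 14 of 28 members and below them for 1, against 23.4% and 21.4% of all tested genes, and the median was 0.44 against 0.03. By edgeR on all libraries none of these 28 differences passed the test.

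After BDL the smallest p belonged to Cxcl10 (-1.54 ± 0.61, adjusted p = 0.373), Cx3cr1 (0.78 ± 0.33, adjusted p = 0.391) and Cx3cl1 (1.10 ± 0.53, adjusted p = 0.442). The 2 groups did not overlap for 4 members that were higher and 2 that were lower in the libraries labelled deleted, against 17.8% and 20.5% of all tested genes. The median was -0.03 against -0.01. Without wild-type BDL replicate 1, the library with high Xist, Cxcl10 was called lower (-2.21, adjusted p = 0.0387) and Ccl6 higher (1.96, adjusted p = 0.0376). On all libraries DESeq2 called 0.

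**Figure D4:**
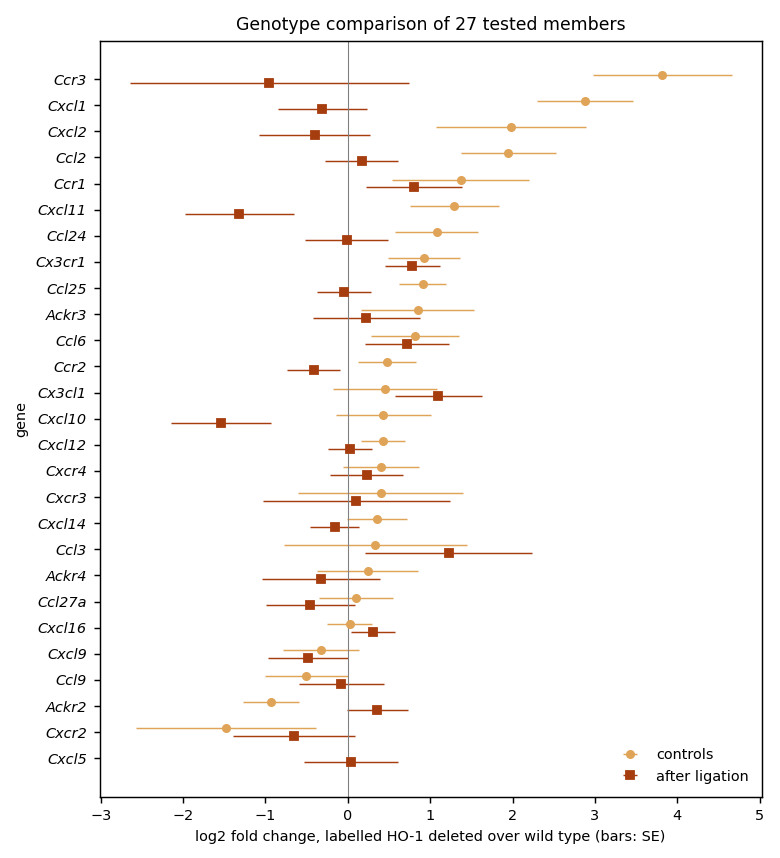
Log2 fold change of the libraries labelled HO-1 deleted over wild type for 27 tested members, in controls (circles) and after BDL (squares), with SE bars and genes ordered by the value in controls. Ccr3, Cxcl1, Cxcl2 and Ccl2 have the highest values drawn for controls, from 1.95 to 3.82, and lie between -0.95 and 0.17 after BDL. None passed the test. The -0.95 is that of Ccr3, which had 1 count after BDL under the deleted label against 4 in wild type, and is no estimate of size. Cxcl5 (3 counts against 0) has no point for controls.

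The test of whether BDL acted differently in the 2 genotypes called 0 members by edgeR, against 0.00707% of all tested genes. An unadjusted p under 0.05 was found for 1316 of all 14147 tested genes and for 6 of the 28 members. The smallest p belonged to Cxcl1 (-3.19 ± 0.79, adjusted p = 0.35), Cxcl11 (-2.61 ± 0.86, adjusted p = 0.426) and Ackr2 (1.29 ± 0.50, adjusted p = 0.475). Cxcl1, Cxcl2, Cxcl10 and Ccl24 were the 4 genes called higher in wild type alone. Their interaction passed for none (adjusted p = 0.35, 0.554, 0.521 and 0.675), so a difference between the genotypes was not shown. Its sign was negative for each, which their choice from the same libraries all but fixed. DESeq2 called Cxcl1 in this test (-3.14, adjusted p = 0.0112). The SE of an interaction was 0.73 at the median over members, against 0.54 for the BDL effect in wild type, so the test of the difference was the less precise.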

How the data were processed

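Per the submitters' processing notes, STAR 2.7.3a, Cufflinks and build mm10 were used, and the labels give RNeasy purification, ribosomal RNA depletion and a stranded KAPA kit. Raw STAR counts for each symbol were deposited by the authors and used unchanged, together with Cufflinks FPKM, which served here for levels per length and as an alternative. Counting strand and annotation release are not given in the sources used here. Members, lists and tests were chosen with earlier results of these data known. Genes kept by filterByExpr (14147) were scaled by trimmed means of M-values and fitted with 4 group means in edgeR 4.0.16 (robust quasi-likelihood, R 4.3.3), leaving 4 residual degrees of freedom. The SE is the absolute log2 fold change divided by the square root of F. CPM in every library are given for members called in at least 1 of 5 contrasts, and the 3 with the smallest p where fewer than 3 were called. At most 4 genes a list are named for each genotype, from those of lowest adjusted p there, besides genes at 0 and Ly6g, Prg2 and Lyz2. A gene named for 1 genotype may be given for the other as well. Alternatives used DESeq2 1.42.0 and limma 3.58.1. The fit was tested on simulated data. Within groups, log2 CPM of the 2 libraries gave r = 0.963 to 0.988, and chi-squared over its degrees of freedom was 88.0 to 762. The 2 libraries of a group are thus not copies of each other, and libraries of different groups were not compared in this way. Positions came from GENCODE vM21 (mm10), which held 60 of the 61 genes. Reads shared by near-identical copies, as in the Ccl21 and Ccl27 families, make single values uncertain. Of the tested members, 1 is counted but not reported here, nor drawn as a point in the plots of fold changes.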

Additional observations from a re-analysis of the deposited data

How the results depend on the processing

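No paired analysis was possible because the labels give no replicate numbers that link libraries across groups. Alternatives were followed for members called in a comparison, or the 3 with the smallest p where none was; over these 709 values none changed sign, 583 stayed on their side of the threshold, 119 lost it and 7 gained it. Marker and pathway genes and members without a call were not followed. Calls over all genes under each alternative are mostly not given here. A drop in calls among members therefore cannot be told from a general loss of calls. In wild type, 15 members were called after BDL, and with total-count scaling 9 were, with limma on log2(FPKM + 1) 7, on log2(FPKM + 0.1) 8 and on log2(FPKM + 1) without a filter 0 (82 genes in all); the cause was not tested. Without wild-type BDL replicate 1 and BDL labelled deleted replicate 2 together, chosen after seeing the data, 9 were called. In the libraries labelled deleted the count of 14 (11 higher, 3 lower) became 7 with total-count scaling (6 and 1), 6 with either pseudocount on FPKM (6 and 0), and 0 on FPKM without a filter; the cause was not tested. Leaving out each library gave 6 to 15 calls in wild type, 9 to 15 in the libraries labelled deleted, 0 to 1 for genotype in controls, 0 to 2 for genotype after BDL and 0 to 0 for the interaction. Genotype in controls had 1 call with DESeq2, without the filter, with its groups fitted alone, and without those 2 libraries. The interaction had 1 call with DESeq2. Total-count scaling moved the median of all genes to -0.12 and -0.31 in the BDL comparisons and to -0.51 and -0.69 in the genotype comparisons. A term for the RN45S share gave 12 and 14 calls in the BDL comparisons, of which 12 and 13 were among the original ones; under the deleted label Ccl6 was lost and Cxcl12 gained. The mean FPKM of Cxcl12 (22.5) was 21.0 as a median. At 3.25 M counts other than RN45S, BDL labelled deleted replicate 2 limits members of few counts.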

Other observations

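The 23 members under 20 counts include genes that the count and FPKM tables treat differently. Ccl21a and Ccl21b, lymphoid ligands of CCR7 with near-identical copies, had 0 counts in every library but FPKM above 0 in all 8 (up to 0.507 and 0.240). Ccl19, a further CCR7 ligand, and Ccl27b had 0 counts and FPKM above 0 in 7 libraries (up to 0.298 and 0.136). The handling of reads that match several copies is not stated, and whether it produced this gap was not tested.

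Without the filter on low counts, 17 members were called higher in wild type after BDL, among them Ccl7 (2.82, adjusted p = 0.0334 by edgeR). In the libraries labelled deleted the 16 calls included Cxcl12, lower (-0.76), and Cxcl2, higher (2.03). The share of all genes called in that fit is not given here, so these counts are not shown to be particular to the members.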
